A study of Mus musculus with 17 samples.

Results

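The genes described here are 41 genes of the passage from G2 into and through mitosis, chosen by name as a list covering the kinases, cyclins, checkpoint, kinetochore, spindle and cytokinesis proteins of a dividing cell. Each of the 41 symbols was present among the 23284 gene symbols of the count tables, and each was tested in every comparison. RNA was sequenced from 17 mouse tumours that the labels call neuroendocrine tumours of the pituitary, 9 of genotype Rb1/Trp53 and 8 of genotype Rb1/Trp53/Crebbp. All 17 come from genetically engineered mice whose genotype label names Rb1 (the retinoblastoma protein) and Trp53 (p53), and that of the 8 also names Crebbp (a histone acetyltransferase and transcriptional coactivator). The sources used here do not name the alleles, the promoter or Cre that drives recombination, or the age of the mice, nor whether any tumours shared a mouse, and the p-values therefore measure only the spread between these samples. Crebbp stood at 48.2 to 55.6 and 39.7 to 116 CPM (counts relative to each library's total, scaled by edgeR's TMM factors over the 17 libraries) in the Calca-high and Pomc-high Rb1/Trp53 libraries and at 67.3 to 93.2 and 42.8 to 62.1 in the Rb1/Trp53/Crebbp ones. Crebbp counts were thus higher, not lower, in the Calca-high Rb1/Trp53/Crebbp libraries than in the Calca-high Rb1/Trp53 ones. Whole-gene counts do not check for a deleted exon, so the genotypes stand here as labelled.

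Cells that leave G2 activate cyclin B and Cdk1, condense their chromosomes, attach them to a bipolar spindle through the kinetochores, and divide once the anaphase-promoting complex has removed securin and the cyclins. The genes of this programme are switched on together late in the cycle: the MuvB complex, with B-Myb and FoxM1 in dividing cells and with retinoblastoma relatives in resting ones, acts on them through promoter elements called CHR (TTTGAA or TTCGAA), often beside CCAAT elements bound by NF-Y. Because cells that are not dividing hold little of most of these transcripts, their level in a piece of tissue is widely used as a measure of proliferation. In bulk RNA a larger number of dividing cells and more of this RNA per cell cannot be told apart.

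The libraries fell into 2 sets by their dominant hormone gene, defined from the counts and not by the study: 10 with more Pomc than Calca (6 Rb1/Trp53, T2 and T5 to T9, and 4 Rb1/Trp53/Crebbp, T5 to T8) and 7 with more Calca than Pomc (3 Rb1/Trp53, T1, T3 and T4, and 4 Rb1/Trp53/Crebbp, T1 to T4). Gene totals ran from 8328297 to 28140755 counts, and the lowest count of any of the 41 genes in any library was 38. In the Calca-high set depth and composition moved with genotype: totals were 20361712 to 28140755 in the Rb1/Trp53 and 8328297 to 15490074 in the Rb1/Trp53/Crebbp libraries, and reads outside annotated features made up 15.9% to 16.5% and 18.5% to 21.7% of the tables. Summed markers of endothelium (8 of 8 listed genes in the files) were 65.95 to 79.05 CPM in the Calca-high Rb1/Trp53 and 34.4 to 47.4 CPM in the Calca-high Rb1/Trp53/Crebbp libraries, with 38.3 to 64.4 and 19.9 to 44.7 CPM in the Pomc-high set. In the same order within the Calca-high set, calcitonin cell markers (4 of 4) summed to 118200 to 177300 and 34770 to 67720 CPM and neuroendocrine markers (5 of 5) to 11800 to 14960 and 5258 to 8153 CPM. Macrophage markers (9 of 10) were at 243 to 280.5 and 83.9 to 259 CPM and fibroblast markers (6 of 6) at 541 to 835 and 169.6 to 608 CPM, both overlapping. Lymphocyte markers (6 of 6) were low and did not overlap, at 18.01 to 38.7 and 5.01 to 10.9 CPM. Thyroid follicle markers (4 of 4) reached 2113 to 16860 CPM in the Calca-high Rb1/Trp53 and 925.5 to 1294 CPM in the Calca-high Rb1/Trp53/Crebbp libraries. Composition also differed by genotype in the Pomc-high set. Neuroendocrine markers were at 8875 to 10860 and 5936 to 8156 CPM there. Lymphocyte markers were at 2.43 to 5.58 and 0.737 to 2.03 CPM, both without overlap. Macrophage (108 to 343 and 28.5 to 185.5 CPM) and fibroblast markers (47.5 to 221 and 33.8 to 213 CPM) overlapped in that set. Anterior lobe genes (6 of 6) summed to at most 0.183 CPM in the Calca-high set, with Gh and Fshb at 0 in all 7 libraries, although the labels give the pituitary as tissue. The part of depth and of these cell types in the results was not tested.

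The CHR and CCAAT letters can be read in the promoters of the genes themselves. RefSeq promoter windows (GRCm38.p6, from 250 bases before to 50 bases after the annotated start) were at hand for 34 of the 41 genes, and the sequences printed here are the up to 200 bases before the start that lie outside the annotated gene, for genes whose values are given in full further on. Capitals mark the CHR forms TTTGAA (which reads TTCAAA on the other strand) and, where present, TTCGAA. They also mark the element CCAAT (which reads ATTGG on the other strand) and, in Cdk1, the E2F letters TTTCGCGC.
Cdk1 (chr10:69352913-69353112, minus strand): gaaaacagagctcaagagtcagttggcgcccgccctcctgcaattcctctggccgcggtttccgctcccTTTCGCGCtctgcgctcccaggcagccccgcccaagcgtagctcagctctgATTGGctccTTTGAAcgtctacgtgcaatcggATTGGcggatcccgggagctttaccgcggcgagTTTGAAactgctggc
Ccnb1 (chr13:100786487-100786686, minus strand): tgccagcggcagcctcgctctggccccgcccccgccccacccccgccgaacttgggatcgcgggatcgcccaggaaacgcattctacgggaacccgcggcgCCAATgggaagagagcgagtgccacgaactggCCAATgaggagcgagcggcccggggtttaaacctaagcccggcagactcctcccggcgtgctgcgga
Top2a (chr11:99024200-99024389, minus strand): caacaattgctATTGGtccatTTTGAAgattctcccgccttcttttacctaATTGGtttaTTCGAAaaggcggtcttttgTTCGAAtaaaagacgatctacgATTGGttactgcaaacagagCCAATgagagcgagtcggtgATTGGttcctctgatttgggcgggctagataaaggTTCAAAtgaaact
Mki67 (chr7:135716451-135716579, minus strand): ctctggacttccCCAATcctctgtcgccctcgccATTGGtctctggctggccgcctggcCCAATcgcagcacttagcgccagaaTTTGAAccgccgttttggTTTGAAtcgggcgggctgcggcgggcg
Bub1 (chr2:127831860-127832059, minus strand): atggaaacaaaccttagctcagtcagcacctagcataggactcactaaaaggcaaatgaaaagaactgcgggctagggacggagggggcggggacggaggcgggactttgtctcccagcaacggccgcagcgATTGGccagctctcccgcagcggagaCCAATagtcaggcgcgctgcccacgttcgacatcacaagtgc
Kif11 (chr19:37376182-37376381, plus strand): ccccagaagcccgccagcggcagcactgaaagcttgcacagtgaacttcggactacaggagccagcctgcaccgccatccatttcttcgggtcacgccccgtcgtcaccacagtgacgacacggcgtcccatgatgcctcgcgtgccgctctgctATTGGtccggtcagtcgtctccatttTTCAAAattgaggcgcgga
Nusap1 (chr2:119618098-119618297, plus strand): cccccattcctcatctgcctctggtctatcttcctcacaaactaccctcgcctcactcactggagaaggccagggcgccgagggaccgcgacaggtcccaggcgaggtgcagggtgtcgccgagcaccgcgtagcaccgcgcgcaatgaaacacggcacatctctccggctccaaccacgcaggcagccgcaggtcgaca

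Cdk1, the mitotic kinase, has TTTGAA beginning at bases -71 and -15 before the start and ATTGG at -80 and -48, and Top2a and Mki67 each carry several copies of both elements. Kif11 has 1 of each. Ccnb1 shows CCAAT at -99 and -67 without TTTGAA or TTCGAA in its window. Bub1 has TTCGAA only behind the start, at base 15, and Nusap1 shows neither these CHR letters nor CCAAT. Other letters were not searched as CHR. Over the 34 windows, searched on both strands, TTTGAA occurred in 22 (64.7%), against 18.1% of 27025 windows of the same length over all genes. CCAAT occurred in 24 (70.6%, against 37.9%), and either CHR form together with CCAAT in 21 (61.8%, against 7.7%). The E2F letters (TTTCCCGC or TTTGGCGC or TTTCGCGC or TTTGCCGC) were found in 1 (2.94%, against 2.32%). Windows of 38 DNA replication and S phase genes held TTTGAA in 13.2% and the E2F letters in 36.8%. These matches describe letters, not bound sites.

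Across the 17 libraries the 41 genes were highest in the Calca-high Rb1/Trp53/Crebbp tumours. The mean level was highest in those 4 libraries for 39 of the 41 genes, Ube2c and Cdc25b being the exceptions, and lowest in the Pomc-high Rb1/Trp53 libraries for 35. How many of all genes follow these orders was not counted. The genes moved largely as a block from library to library. The library value used for this was the median, over the 41 genes, of log2 CPM minus the gene's mean over all libraries. It was 0.72 to 1.02 in the 4 Calca-high Rb1/Trp53/Crebbp libraries, -0.19, 0.13 and 0.56 in Rb1/Trp53 T1, T3 and T4, and between -0.84 and -0.01 in the Pomc-high set.

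**Figure D1:**
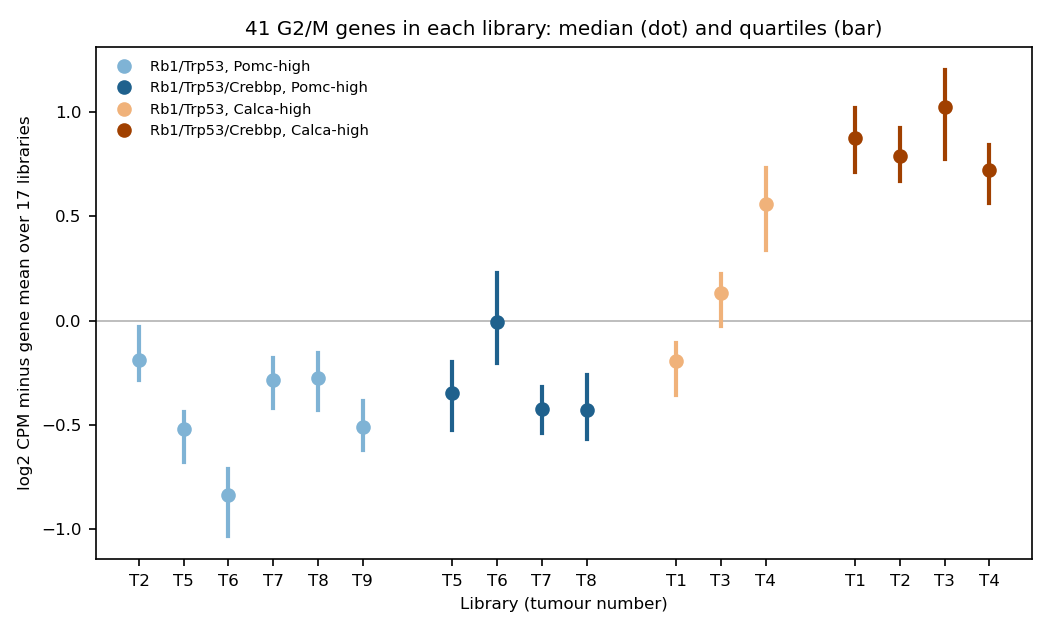
Each dot is the median over the 41 genes of log2 CPM minus the gene's mean over the 17 libraries, and each bar runs from the lower to the upper quartile over the genes, with libraries on the x axis grouped by genotype and set. The 4 Calca-high Rb1/Trp53/Crebbp libraries (0.72 to 1.02) lie above all others, Rb1/Trp53 T4 (0.56) comes next, and Rb1/Trp53 T6 (-0.84) is lowest.

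Single tumours stood apart for most of the genes at once. Within the 3 Calca-high Rb1/Trp53 libraries T4 was highest and T1 lowest for 39 of the 41 genes each. Several marker sums ran the other way, thyroid follicle markers being at 16860, 6768 and 2113 CPM in T1, T3 and T4. In the same order endothelium had 79.05, 69.8 and 65.95, macrophages 280.5, 265 and 243, and lymphocytes 38.7, 26.6 and 18.01 CPM. Fibroblast markers rose instead, at 541, 731 and 835 CPM.  Rb1/Trp53/Crebbp T3 was highest of the 4 Calca-high tumours of its genotype for 30 genes. The thyroid follicle sum in Rb1/Trp53/Crebbp T1 to T4 was 925.5, 1116, 1211 and 1294 CPM. In the Pomc-high set Rb1/Trp53 T6 was the lowest of its 6 libraries for 34 genes, and its summed anterior lobe genes were the highest of the 17 at 14190 CPM. In Rb1/Trp53 T2, T5, T7, T8 and T9 that sum was 47.2, 11.1, 3144, 9749 and 811 CPM. The library values, in the same order, were -0.19, -0.52, -0.28, -0.27 and -0.51, which did not follow the sum. The part of any of these marker sums in the orders of the libraries was not tested. Rb1/Trp53/Crebbp T6 was the highest of its 4 for 33.

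Within the 7 Calca-high libraries most G2/M genes were more abundant in the Rb1/Trp53/Crebbp tumours. Of the 41 genes 26 rose, Cdc25b fell and 14 did not pass the test (edgeR's quasi-likelihood test, Benjamini-Hochberg adjusted over 14797 genes, adjusted p under 0.05); over all genes tested 36.2% were called, 19.1% higher and 17.1% lower. The median log2 fold change (Rb1/Trp53/Crebbp over Rb1/Trp53) was 0.69 over the 41 genes and -0.02 over all genes, and 40 of the 41 values were positive. The 4 and 3 libraries did not overlap for 28 genes that were higher and 1 that was lower, where 22% and 22.5% of all genes did not overlap in those directions. The widest differences were those of Mki67 (1.36), Bub1 (1.23), Cenpe (1.20), Cenpf (1.18) and Kif11 (1.17).

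The number of the 41 genes called in the Calca-high set, 27, fell to 16 without Rb1/Trp53 T3 and to 16 without Rb1/Trp53/Crebbp T3, was 18 without Rb1/Trp53 T1 and rose to 37 without Rb1/Trp53 T4. The median over the genes stayed between 0.48 and 0.97 in these fits.

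Within the 10 Pomc-high libraries few of the genes differed by genotype. Nusap1 rose and Cdc25b fell, and 39 of the 41 did not pass the test, where 8.42% of all 14010 genes tested were called, 3.15% higher and 5.26% lower. Before adjustment 7 of the 41 had p under 0.05, 6 of them higher in Rb1/Trp53/Crebbp. Of all 14010 genes 3561 had, 1712 of them higher. Over both directions together the 41 genes thus held no larger share than all genes. For the higher direction alone the counts were 6 of 41 and 1712 of 14010. The median log2 fold change was 0.13 over the 41 genes and 0.01 over all genes, with 35 values positive. That small positive median came to 0.01 with 22 values positive without Rb1/Trp53/Crebbp T6 and to 0.06 without Rb1/Trp53 T6, and to 0.21 without Rb1/Trp53 T2. The libraries of the 2 genotypes did not overlap for Nusap1 (higher) and Cdc25b (lower) alone among the 41, where 3.86% and 5.87% of all genes did not overlap.

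**Figure D2:**
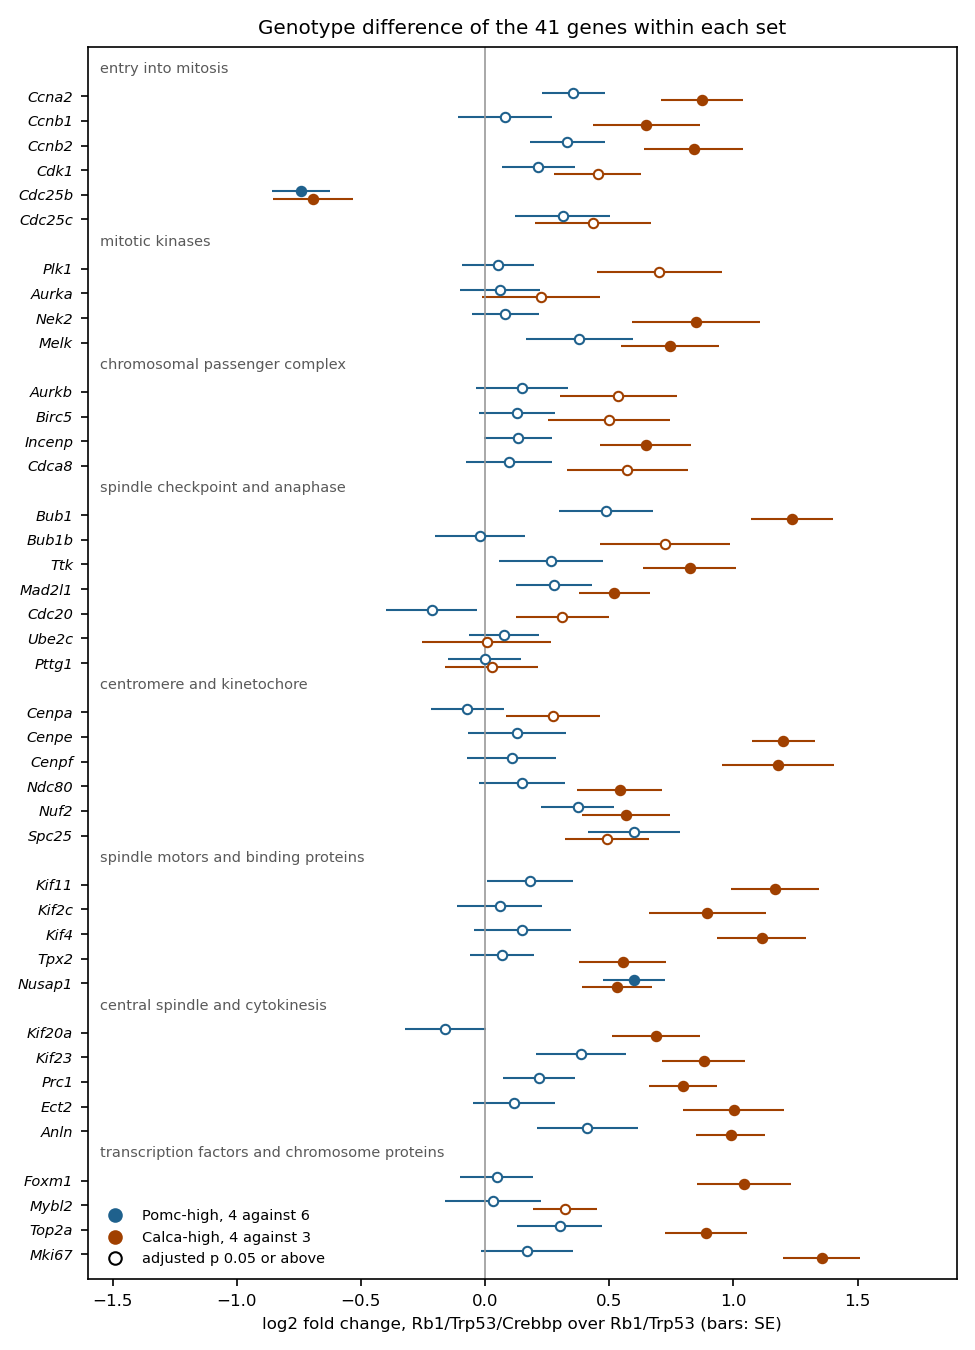
For each of the 41 genes, grouped by role, the x axis gives the log2 fold change of Rb1/Trp53/Crebbp over Rb1/Trp53 with its standard error, in blue for the Pomc-high and in brown for the Calca-high libraries, and filled points passed an adjusted p under 0.05. Filled brown points lie to the right for 26 genes, whereas in blue only Nusap1 (0.60) and Cdc25b (-0.74) are filled.

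Among the genes of entry into mitosis, the cyclins rose in the Calca-high Rb1/Trp53/Crebbp tumours while Cdk1 did not pass the test and Cdc25b fell. Ccna2, the cyclin A of S phase and G2, stood at 31.8, 37.2 and 51.2 CPM in Rb1/Trp53 T1, T3 and T4 and at 74.7, 68.5, 82.3 and 64.7 CPM in Rb1/Trp53/Crebbp T1 to T4. The groups did not overlap (log2 fold change 0.87 ± 0.16, adjusted p = 0.00594). Its Pomc-high values were 27.5 to 39.7 CPM (median 34.6) in the 6 Rb1/Trp53 libraries and 39.6, 52.97, 39.1 and 39.2 CPM in Rb1/Trp53/Crebbp T5 to T8, with Rb1/Trp53/Crebbp T6 apart from the other three (log2 fold change 0.36 ± 0.13, adjusted p = 0.102). Ccnb1, the B-type cyclin that drives mitosis with Cdk1, had 31.6, 35.5 and 59.1 CPM in Rb1/Trp53 T1, T3 and T4 and 59.5, 64.8, 77.1 and 59.2 CPM in Rb1/Trp53/Crebbp T1 to T4. The groups did not overlap, but Rb1/Trp53 T4 lay just below the lowest Rb1/Trp53/Crebbp libraries. The difference passed (0.65 ± 0.21, adjusted p = 0.0454) but no longer did when any library of the 7 other than Rb1/Trp53 T4 was left out, nor with upper-quartile factors. Pomc-high Ccnb1 ran at 15.7 to 35.3 CPM (median 28.02) in the 6 Rb1/Trp53 libraries and 23.5, 36.6, 26.4 and 26.3 CPM in Rb1/Trp53/Crebbp T5 to T8, and the groups overlapped (0.08 ± 0.19, adjusted p = 0.837). Ccnb2, its close relative, rose in the Calca-high set (0.84 ± 0.20) and had 0.33 ± 0.15 in the other.

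Cdk1 had 40.3, 45.3 and 69.2 CPM in Rb1/Trp53 T1, T3 and T4 and 69.8, 71.5, 74.9 and 62.6 CPM in Rb1/Trp53/Crebbp T1 to T4 in the Calca-high set. Rb1/Trp53 T4 lay inside the Rb1/Trp53/Crebbp range, and the difference did not pass (0.45 ± 0.18, adjusted p = 0.0773). Its Pomc-high levels were 23.9 to 42.7 CPM (median 34.9) in the 6 Rb1/Trp53 libraries and 37.3, 47.4, 37.4 and 34.9 CPM in Rb1/Trp53/Crebbp T5 to T8, again overlapping (0.21 ± 0.15, adjusted p = 0.392). Cdc25c, a phosphatase that activates Cdk1, did not pass in either set (0.43 ± 0.23 Calca-high, 0.31 ± 0.19 Pomc-high).

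Cdc25b, the phosphatase thought to start Cdk1 activation at the centrosome, was the gene of the list that fell, and it fell in both sets. How many of all genes fell in both sets was not counted. In the Calca-high libraries it stood at 308, 298 and 328 CPM in Rb1/Trp53 T1, T3 and T4 and at 247, 147, 185 and 183 CPM in Rb1/Trp53/Crebbp T1 to T4. In the Pomc-high libraries it stood at 195 to 251 CPM (median 215) in the 6 Rb1/Trp53 libraries and at 137, 153, 122 and 102 CPM in Rb1/Trp53/Crebbp T5 to T8. Every Rb1/Trp53/Crebbp library lay below every Rb1/Trp53 library of its set. It fell by 0.69 ± 0.16 on the log2 scale in the Calca-high (adjusted p = 0.013) and by 0.74 ± 0.12 in the Pomc-high set (adjusted p = 0.00248), and the test of the difference between the sets gave 0.06 ± 0.20, adjusted p = 0.871.

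**Figure D3:**
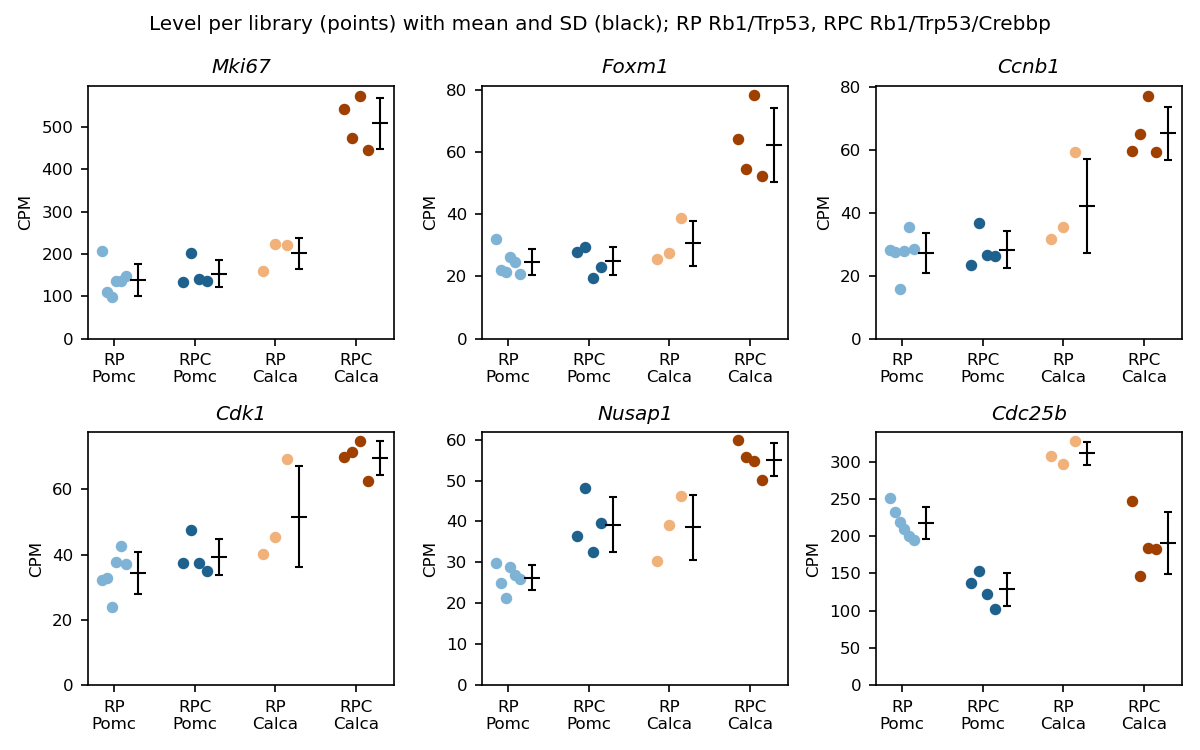
Each panel gives the CPM of 1 gene on a linear axis from 0, with 1 point per library, the mean and SD in black, and the 4 combinations of genotype (RP Rb1/Trp53, RPC Rb1/Trp53/Crebbp) and set on the x axis. Mki67 and Foxm1 stand highest in the 4 Calca-high Rb1/Trp53/Crebbp libraries (445 to 573 and 52.3 to 78.4 CPM), Nusap1 is higher in Rb1/Trp53/Crebbp in both sets, and Cdc25b is lower in both.

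Of the 4 mitotic kinases Nek2 and Melk rose in the Calca-high set and Plk1 and Aurka did not pass. Melk, a kinase expressed in dividing and progenitor cells, had 10.7, 11.99 and 18.5 CPM in Rb1/Trp53 T1, T3 and T4 and 23.5, 24.4, 23.6 and 19.2 CPM in Rb1/Trp53/Crebbp T1 to T4. The groups were separate by a small margin, Rb1/Trp53 T4 next to Rb1/Trp53/Crebbp T4 (0.75 ± 0.20, adjusted p = 0.0214), and the call was lost without Rb1/Trp53 T1, without Rb1/Trp53 T3 and without Rb1/Trp53/Crebbp T3. Pomc-high Melk levels were 5.33 to 11.6 CPM (median 7.58) in the 6 Rb1/Trp53 libraries and 11.3, 12.7, 9.57 and 8.59 CPM in Rb1/Trp53/Crebbp T5 to T8, overlapping (0.38 ± 0.21, adjusted p = 0.288). Nek2, a centrosome kinase, was at 23.2 to 46.8 CPM in the Rb1/Trp53 and 49.4 to 75.2 CPM in the Rb1/Trp53/Crebbp libraries (0.85 ± 0.26, adjusted p = 0.0356). Plk1 (0.70 ± 0.25, adjusted p = 0.0615), which acts from mitotic entry to cytokinesis, was at 21.6 to 47.6 and 45.7 to 57.8 CPM, and Aurka, the spindle pole kinase (0.23 ± 0.24, adjusted p = 0.485), at 21.1 to 46.8 and 34.8 to 43.6 CPM. Pomc-high log2 fold changes of Nek2, Plk1 and Aurka were 0.08, 0.05 and 0.06.

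The chromosomal passenger complex corrects wrong attachments of chromosomes to the spindle and later acts in cytokinesis. Its scaffold Incenp had 32.04, 40.1 and 56.1 CPM in Rb1/Trp53 T1, T3 and T4 and 66.8, 57.8, 75.6 and 64.1 CPM in Rb1/Trp53/Crebbp T1 to T4. The Rb1/Trp53/Crebbp libraries were all higher, Rb1/Trp53 T4 coming close (0.65 ± 0.18, adjusted p = 0.0263), and the call was lost in turn without Rb1/Trp53 T1 or T3 and without Rb1/Trp53/Crebbp T1, T3 or T4. The other 3 subunits were shifted by similar amounts but did not pass: the kinase Aurkb (0.54 ± 0.24), survivin, Birc5 (0.50 ± 0.25), and borealin, Cdca8 (0.57 ± 0.24), with adjusted p from 0.0998 to 0.145. Incenp in the Pomc-high set was 20.1 to 33.1 CPM (median 25.6) in the 6 Rb1/Trp53 libraries and 28.02, 30.9, 27.9 and 25.7 CPM in Rb1/Trp53/Crebbp T5 to T8. Those ranges overlapped and the 4 subunits lay between 0.10 and 0.15 in log2 fold change there.

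Among the 7 genes of the spindle checkpoint and of anaphase, the checkpoint kinases Bub1 and Ttk and their partner Mad2l1 rose in the Calca-high set, and the genes of the anaphase step itself did not pass. Bub1 had 9.20, 11.7 and 14.7 CPM in Rb1/Trp53 T1, T3 and T4 and 27.7, 27.5, 30.3 and 24.9 CPM in Rb1/Trp53/Crebbp T1 to T4. The lowest Rb1/Trp53/Crebbp library lay well above Rb1/Trp53 T4 (1.23 ± 0.17, adjusted p = 0.00193). Its Pomc-high values were 6.39 to 13.02 CPM (median 9.51) in the 6 Rb1/Trp53 libraries and 12.01, 17.1, 11.8 and 13.4 CPM in Rb1/Trp53/Crebbp T5 to T8, where the ranges overlapped (0.49 ± 0.19, adjusted p = 0.126). Ttk (0.82 ± 0.19) and Mad2l1 (0.52 ± 0.14) passed, and Bub1b did not (0.72 ± 0.26, adjusted p = 0.0616). Cdc20, the activator of the anaphase-promoting complex, had 35.6 to 60.9 and 49.6 to 61.1 CPM (0.31 ± 0.19). The ubiquitin-conjugating enzyme Ube2c (0.01 ± 0.26; 31.2 to 75.1 and 46.02 to 60.4 CPM) and securin, Pttg1 (0.03 ± 0.19; 16.1 to 25.5 and 16.4 to 22.5 CPM), had the smallest differences of the 41 genes, each with fully overlapping groups.

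At the centromere and kinetochore 4 of 6 genes rose in the Calca-high set. Cenpe, the kinesin that carries chromosomes to the spindle equator, had 26.6, 32.3 and 36.6 CPM in Rb1/Trp53 T1, T3 and T4 and 68.5, 72.1, 82.3 and 66.3 CPM in Rb1/Trp53/Crebbp T1 to T4. All 4 were far above the 3, and its adjusted p was the smallest among the 41 genes (1.20 ± 0.13, adjusted p = 0.00115). Pomc-high Cenpe ran at 12.9 to 27.6 CPM (median 20.8) in the 6 Rb1/Trp53 libraries and 18.02, 29.3, 18.9 and 22.2 CPM in Rb1/Trp53/Crebbp T5 to T8, which overlapped (0.13 ± 0.20, adjusted p = 0.734). Cenpf, a large kinetochore protein, was at 40.3 to 81.6 CPM in the Rb1/Trp53 and 116 to 153 CPM in the Rb1/Trp53/Crebbp libraries (1.18 ± 0.23). Ndc80 (0.54 ± 0.17) and Nuf2 (0.57 ± 0.18), which form the rod that grips the microtubule, rose, and their partner Spc25 did not quite pass (0.49 ± 0.17, adjusted p = 0.0531).

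Spc25 had 19.4, 27.7 and 31.6 CPM in Rb1/Trp53 T1, T3 and T4 and 38.2, 32.8, 41.01 and 33.6 CPM in Rb1/Trp53/Crebbp T1 to T4. Pomc-high Spc25 was at 11.6 to 25.9 CPM (median 17.3) in the 6 Rb1/Trp53 libraries and 25.2, 32.6, 23.5 and 25.7 CPM in Rb1/Trp53/Crebbp T5 to T8. The Calca-high groups did not overlap, whereas the Pomc-high ones did, and its Pomc-high log2 fold change did not pass either (0.60 ± 0.19, adjusted p = 0.065), though it did with DESeq2, limma-voom, library totals or a length offset, and without Rb1/Trp53 T7. Cenpa, the histone of the centromere, was at 17.9 to 30.3 and 22.9 to 30.8 CPM in the Calca-high libraries (0.27 ± 0.19) and did not pass.

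All 5 spindle motors and binding proteins rose in the Calca-high set. Kif11, the motor that pushes the spindle poles apart, had 24.2, 28.2 and 39.97 CPM in Rb1/Trp53 T1, T3 and T4 and 66.4, 66.9, 79.97 and 59.9 CPM in Rb1/Trp53/Crebbp T1 to T4, with a wide gap between the groups (1.17 ± 0.18, adjusted p = 0.00276). Pomc-high libraries had 16.3 to 26.6 CPM (median 20.4) in the 6 Rb1/Trp53 libraries and 19.2, 31.97, 20.4 and 21.96 CPM in Rb1/Trp53/Crebbp T5 to T8, and the groups overlapped (0.18 ± 0.17, adjusted p = 0.552). The chromosome motor Kif4 (1.11 ± 0.18), the microtubule depolymerase Kif2c (0.90 ± 0.24) and Tpx2, the activator of Aurora A on the spindle (0.55 ± 0.17), rose as well, and their Pomc-high values were 0.15, 0.06 and 0.07.

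Nusap1, which bundles spindle microtubules around chromosomes, was the gene of this list that rose in both sets. In the Pomc-high set it had 21.2 to 29.9 CPM (median 26.4) in the 6 Rb1/Trp53 libraries and 36.3, 48.3, 32.6 and 39.5 CPM in Rb1/Trp53/Crebbp T5 to T8, so that each Rb1/Trp53/Crebbp library exceeded each Rb1/Trp53 library (0.60 ± 0.12, adjusted p = 0.0104). In the Calca-high set it had 30.3, 39.2 and 46.1 CPM in Rb1/Trp53 T1, T3 and T4 and 59.8, 55.7, 54.9 and 50.04 CPM in Rb1/Trp53/Crebbp T1 to T4, also without overlap (0.53 ± 0.14, adjusted p = 0.0212). The Calca-high call was lost without Rb1/Trp53 T3 and without Rb1/Trp53/Crebbp T3, and with the offset for transcript length and GC content described further on. With the tumour number as a replicate block the call was lost in both sets. How many of all genes rose in both sets was not counted. The interaction of genotype and set was -0.06 ± 0.20, adjusted p = 0.844.

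The 5 genes of the central spindle and of cytokinesis also all rose in the Calca-high set. Kif23, the motor of the centralspindlin complex, had 23.98, 31.3 and 38.6 CPM in Rb1/Trp53 T1, T3 and T4 and 60.97, 49.3, 64.3 and 53.2 CPM in Rb1/Trp53/Crebbp T1 to T4, separate groups with a clear gap (0.88 ± 0.17, adjusted p = 0.00611). Its Pomc-high levels were 12.99 to 23.4 CPM (median 18.97) in the 6 Rb1/Trp53 libraries and 19.7, 32.2, 19.7 and 22.3 CPM in Rb1/Trp53/Crebbp T5 to T8, overlapping apart from Rb1/Trp53/Crebbp T6 (0.39 ± 0.18, adjusted p = 0.201). Anln, the scaffold of the contractile ring, had 32.9, 30.7 and 40.6 CPM in Rb1/Trp53 T1, T3 and T4 and 69.1, 63.3, 80.9 and 59.2 CPM in Rb1/Trp53/Crebbp T1 to T4, again without overlap (0.99 ± 0.14, adjusted p = 0.00222). For Anln the Pomc-high values were 18.8 to 35.3 CPM (median 25.7) in the 6 Rb1/Trp53 libraries and 22.7, 45.5, 26.4 and 38.4 CPM in Rb1/Trp53/Crebbp T5 to T8, with T6 and T8 high and T5 and T7 inside the Rb1/Trp53 range (0.41 ± 0.20, adjusted p = 0.231). Ect2 (1.001 ± 0.20), which activates the ring, Prc1 (0.80 ± 0.14), which bundles the midzone, and the motor Kif20a (0.69 ± 0.18) rose. Kif20a was at 26.9 to 40.1 and 44.3 to 61.2 CPM in the Calca-high libraries and had a log2 fold change of -0.16 ± 0.16 in the Pomc-high ones.

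Of the transcription factors and chromosome proteins, Foxm1, Top2a and Mki67 rose in the Calca-high set and Mybl2 did not pass. Foxm1, the forkhead factor of G2 genes, had 25.6, 27.6 and 38.9 CPM in Rb1/Trp53 T1, T3 and T4 and 64.1, 54.5, 78.4 and 52.3 CPM in Rb1/Trp53/Crebbp T1 to T4. No overlap was seen (1.04 ± 0.19, adjusted p = 0.00527), while its Pomc-high values of 20.8 to 32.1 CPM (median 23.3) in the 6 Rb1/Trp53 libraries and 27.9, 29.3, 19.6 and 22.9 CPM in Rb1/Trp53/Crebbp T5 to T8 were interleaved (0.05 ± 0.15, adjusted p = 0.879). Top2a, the topoisomerase that untangles sister chromosomes, had 107, 132 and 179 CPM in Rb1/Trp53 T1, T3 and T4 and 254, 246, 283 and 237 CPM in Rb1/Trp53/Crebbp T1 to T4 (0.89 ± 0.16, adjusted p = 0.0054), a call lost with the length and GC offset. Its groups were separate there, and in the Pomc-high set they overlapped, at 75.8 to 142 CPM (median 118) in the 6 Rb1/Trp53 libraries and 119, 189, 121 and 123 CPM in Rb1/Trp53/Crebbp T5 to T8 (0.30 ± 0.17, adjusted p = 0.299).

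Mki67, the coat protein of mitotic chromosomes known as the proliferation antigen, had 159, 224 and 222 CPM in Rb1/Trp53 T1, T3 and T4 and 543, 474, 573 and 445 CPM in Rb1/Trp53/Crebbp T1 to T4. The group means were 201 ± 37.1 CPM (SD, n = 3) and 509 ± 59.7 CPM (SD, n = 4) with nothing between them (1.36 ± 0.16, adjusted p = 0.00132), the widest difference of the 41 genes. Pomc-high Mki67 ran at 99.2 to 206 CPM (median 135) in the 6 Rb1/Trp53 libraries and 134, 203, 141 and 137 CPM in Rb1/Trp53/Crebbp T5 to T8. The highest value of each genotype there, in Rb1/Trp53 T2 and Rb1/Trp53/Crebbp T6, was nearly the same (0.17 ± 0.19, adjusted p = 0.617). Mybl2, B-Myb itself, was at 14.4, 16.6 and 15.9 CPM in the Calca-high Rb1/Trp53 and at 17.6, 16.996, 21.1 and 21.7 CPM in the Calca-high Rb1/Trp53/Crebbp libraries, without overlap but short of the threshold (0.32 ± 0.13, adjusted p = 0.0811).

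In the Calca-high set the genotype difference of a gene varied with the length of its transcript, taken as the longest that GENCODE annotates, which need not be the one expressed. Over 14631 genes with such a length the log2 fold change and the length had a Spearman rho of 0.458, described across genes, which are not independent, and over the 41 genes it was 0.59. The median of all genes ran from -0.40 for transcripts up to 1500 nucleotides to 0.46 for those over 6000. The medians of the 41 genes were above these in every class and likewise larger for longer transcripts, from 0.54 over 13 genes of over 1500 and up to 2500 nucleotides to 1.19 over the 4 longest (Mad2l1, Cenpe, Mki67 and Cenpf). In the Pomc-high set the same rho was -0.0508 over all genes and 0.117 over the 41. With the GC content of the transcript the Pomc-high rho was -0.093 over all genes and -0.603 over the 41. The Calca-high values for GC content were -0.182 and -0.372.

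**Figure D4:**
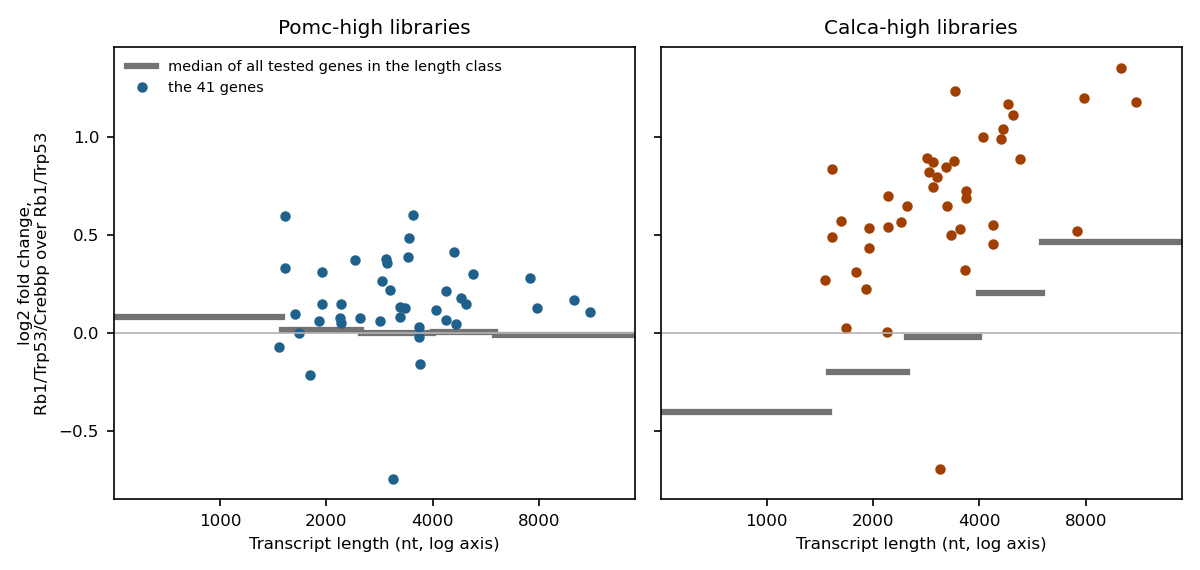
The x axis is the transcript length on a log scale and the y axis the log2 fold change of Rb1/Trp53/Crebbp over Rb1/Trp53, for the Pomc-high (left) and the Calca-high libraries (right); points are the 41 genes and grey bars the median of all tested genes in 5 length classes. On the right the grey bars climb from -0.40 to 0.46 and the points climb above them, and on the left the bars run from -0.01 to 0.08.

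With each library's trend on transcript length taken out as an offset, a setting added after the data had been seen, 27 of the 41 genes were still higher in the Calca-high Rb1/Trp53/Crebbp tumours and Cdc25b lower, with a median of 0.71, while the share of all genes that rose came to 11.6%. Of the 27 calls 23 were kept. Cenpf (0.46, adjusted p = 0.205), Mad2l1 (near 0, adjusted p = 0.999), Nek2 (0.85, adjusted p = 0.0515) and Tpx2 (0.37, adjusted p = 0.183) no longer passed, and the shorter Aurkb, Cdca8, Plk1, Spc25 and Cenpa now did. The order of the genes changed too: Mki67 came to 0.70 and Cenpe to 0.65, and Bub1 (1.20) and Ccnb2 (1.16) were then the highest. With GC content in the offset as well, 23 rose (11.7% of all genes) and 19 of the 27 calls were kept. The 8 lost were Ccnb1, Cenpf, Kif20a, Mad2l1, Nek2, Nusap1, Tpx2 and Top2a, the last at 0.54, adjusted p = 0.0643.

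Whether the genotype difference itself differed between the sets was tested as an interaction over all 17 libraries. It was larger in the Calca-high set for 9 of the 41 genes and smaller for 0 (12.8% and 10% of 15432 genes, 22.9% in all). Before adjustment 18 of the 41 had p under 0.05, all 18 larger in the Calca-high set. Of the 15432 genes 5732 had, 3025 of them larger in that set. The 9 were Mki67 (1.19 ± 0.28, adjusted p = 0.00753), Cenpe, Cenpf, Foxm1, Kif11, Kif4, Ect2, Kif20a and Kif2c, with values from 0.84 to 1.19. All 9 were lost with the transcript length offset: Mki67 was then 0.50, adjusted p = 0.238, Foxm1 0.74, adjusted p = 0.0703 and Kif2c 0.84, adjusted p = 0.0747, and the median over the 41 genes moved from 0.52 to 0.50. The count was 3 without Rb1/Trp53 T1, 5 without Rb1/Trp53 T3, 4 without Rb1/Trp53/Crebbp T3, 14 without Rb1/Trp53/Crebbp T6 and 23 without Rb1/Trp53 T4.

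Between the sets, each of the 41 genes was higher in the Calca-high libraries, with genotype as a term of the fit (41 of 41, where 60.1% of 15432 genes were called, 31.1% higher and 28.9% lower). The median log2 difference was 0.86, from 0.49 (Spc25) to 1.26 (Cdc25c), against 0.01 over all genes. The largest belonged to Cdc25c (1.26 ± 0.14), Mybl2 (1.25 ± 0.13), Plk1 (1.25 ± 0.16) and Aurka (1.22 ± 0.14), none of which passed the test between genotypes in the Calca-high set. Over both genotypes together 6 genes had no overlap between the sets (Plk1, Aurka, Cdc20, Ube2c, Pttg1 and Mybl2; 11.6% of all genes were so separated). Mybl2 was at 5.75 to 8.86 and 5.58 to 9.21 CPM in the Pomc-high Rb1/Trp53 and Rb1/Trp53/Crebbp libraries, below its lowest Calca-high value of 14.4, and Aurka was at 10.2 to 18.5 and 13.4 to 17.9 CPM, below 21.1.

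The difference between the sets was present within each genotype. Among the 9 Rb1/Trp53 libraries 30 of the 41 genes were higher in the Calca-high ones (median 0.60, with 28.2% of all genes higher) and 11 did not pass, among them Bub1, Ccna2, Foxm1 and Top2a. Among the 8 Rb1/Trp53/Crebbp libraries 41 of 41 were higher (median 1.11, with 26.1% of all genes higher). Cdc25c (1.20 and 1.30), Ube2c (1.16 and 1.07) and Mybl2 (1.11 and 1.38) are given here for Rb1/Trp53 and then Rb1/Trp53/Crebbp, beside Cenpf (0.05 and 1.10) and Mki67 (0.54 and 1.71); the interaction above tests those differences, and of these 5 genes Cenpf and Mki67 passed it. The length of the transcript had little relation to the set difference (Spearman rho -0.042 over all genes), and 40 of the 41 passed with the length offset. For GC content the rho was 0.0705 over all genes and 0.532 over the 41, and 41 passed with the length and GC offset.

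Over all 17 libraries without regard to the set, the contrast the labels give, 3 genes rose, Bub1 (0.97 ± 0.22, adjusted p = 0.0238), Ccna2 (0.68 ± 0.17, adjusted p = 0.0349) and Nusap1 (0.63 ± 0.16, adjusted p = 0.0346). Cdc25b fell (-0.64 ± 0.16, adjusted p = 0.037) and 37 did not pass, where 3.86% of 14338 genes were called, 1.81% higher and 2.05% lower. The median over the 41 genes was 0.61 and 40 were positive. With the set as a term 15 rose (8.22% of all genes) and 1 fell (median 0.39). The 4 calls became 12 without Rb1/Trp53/Crebbp T5, 8 without Rb1/Trp53 T4, 6 without Rb1/Trp53/Crebbp T7 or T8, 3 without Rb1/Trp53 T1 or Rb1/Trp53/Crebbp T6, and 1 or 2 without any other library except Rb1/Trp53 T2, which left 4.

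Other lists of cell cycle genes are described by their counts, to be read against the 19.1% of all genes higher and 17.1% lower in the Calca-high and the 3.15% and 5.26% in the Pomc-high genotype fit. Genes are named by the smallest p, not the largest fold. The counts are without the length offset, and the part of transcript length in those of the Calca-high set was not tested. Of 76 further G2/M genes in the files 45 rose in the Calca-high Rb1/Trp53/Crebbp tumours and 0 fell (median 0.60), with the smallest p for Casc5 (1.86 ± 0.17), a kinetochore scaffold, and Kntc1 (0.96 ± 0.09), a checkpoint protein. Of the same 76 genes 5 rose in the Pomc-high set, among them H2afx (0.74 ± 0.13), Hn1 (0.50 ± 0.12) and Hmgb2 (0.62 ± 0.16). Of 17 condensin and cohesin genes 16 rose in the Calca-high set, for example Pds5a (1.17 ± 0.11) and Smc2 (1.14 ± 0.12), and 0 passed in the Pomc-high set. The anaphase-promoting complex had 3 of 13 subunits higher and 2 lower in the Calca-high set, with Cdc27 (0.55 ± 0.07) and Anapc1 (0.77 ± 0.10) up and the small subunit Anapc13 (-0.92 ± 0.13) down, shares near those of all genes.

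Of 46 DNA replication and S phase genes 30 rose and 0 fell in the Calca-high set (median 0.50), with Ccne2 (1.33 ± 0.11), the cyclin E of S phase entry, and Brca2 (1.24 ± 0.09) having the smallest p, and 2 rose in the Pomc-high set (Gins2 0.75 ± 0.16, Orc6 0.45 ± 0.11). Of 12 genes of the DREAM and MuvB complex 3 rose, Mybl1 (1.59 ± 0.17) with the smallest p, and 1 fell in the Calca-high set, again near the shares of all genes. Of 13 G1 cyclins, kinases and inhibitors 0 rose, 4 fell and 9 did not pass in the Calca-high set, with 6 of the 13 values positive. Those that fell include the D-type cyclins Ccnd2 (-1.65 ± 0.31) and Ccnd1 (-0.79 ± 0.18) and their kinase Cdk4 (-0.40 ± 0.09). In the Pomc-high set Cdkn1c, a CDK inhibitor, rose (0.56 ± 0.15) and the other 12 did not pass. Against the Pomc-high set the Calca-high libraries were higher for 59 of the 76 further G2/M genes (4 lower) and for 38 of the 46 S phase genes (1 lower), where 31.1% of all genes were higher and 28.9% lower.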

How the data were processed

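For every tumour the authors deposited raw gene counts, listing 23284 symbols plus 5 summary rows that were excluded from totals and tests. The submitters' processing notes name bcl2fastq 1.8.2, TopHat2 2.0.12, HTSeq 0.6.1 and mm9. Per the labels' protocols, polyadenylated RNA was isolated and libraries made with a NEBNext Ultra kit. Annotation and strand setting are not stated there, and reads of overlapping or antisense genes cannot be told apart.

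The 41 genes, the gene lists and the 2 sets were chosen with earlier results of these data known. Counts were fitted in R 4.3.3 with edgeR 4.0.16 (filterByExpr, TMM, robust quasi-likelihood F test), with Benjamini-Hochberg adjustment over all genes tested and a threshold of 0.05. Fits were made within each set, over all libraries, with genotype and set as terms, and with their interaction. The ± beside a log2 fold change is its SE, the absolute value over the square root of F. CPM shown are not corrected for transcript length, so levels are compared within a gene only. Values per library are given for the gene with the smallest p of each role group in each within-set fit and for Mki67, Top2a, Ccnb1, Cdk1 and Foxm1; of other lists up to 3 genes with the smallest p were named. The scripts were tested on simulated counts. No 2 tables were alike (64 pairs within a genotype, chi-square per degree of freedom at least 8.3).

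Alternatives were DESeq2 1.42.0 and its size factors, limma-voom 3.58.1 with and without quality weights, upper-quartile factors, library totals, other filters, 1 shared fit, the tumour number as a block, and each library left out. Offsets for transcript length and GC (longest GENCODE M21 transcript of each symbol) were added after the data had been seen. Figures were drawn with matplotlib 3.10.9. Promoter windows come from RefSeq and were matched by symbol.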

Additional observations from a re-analysis of the deposited data

Results flagged for a closer look

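Single libraries stood far from the rest of their group, by Dixon's gap, in 4 of 48 groups of 4 to 10 libraries checked for the genes given in full; chance flags about 1 in 20 such groups. In the Pomc-high Rb1/Trp53/Crebbp group library T6 was the high one for Ccna2 (53.0 CPM), Top2a (189 CPM) and Mki67 (202.5 CPM). In the Calca-high Rb1/Trp53/Crebbp group library T4 was the low one for Melk (19.2 CPM).

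The genotype difference was larger in the Calca-high than in the Pomc-high set, by the edgeR test of the interaction, for the chromosome protein Mki67, 1.19 (adjusted p = 0.00753), and the factor Foxm1, 0.999 (adjusted p = 0.0107). At the kinetochore it was larger for Cenpe, 1.08 (adjusted p = 0.0115), and Cenpf, 1.08 (adjusted p = 0.0224). Among motors it was larger for Kif11, 0.99 (adjusted p = 0.0162), Kif4, 0.97 (adjusted p = 0.027), Kif20a, 0.86 (adjusted p = 0.0256), and Kif2c, 0.84 (adjusted p = 0.049), and in cytokinesis for Ect2, 0.89 (adjusted p = 0.0324). With the transcript length offset 0 of these 9 passed.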

How the results depend on the processing

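Of 2048 values of the 16 genes given in full under the alternatives, 1849 kept direction and side of the threshold, 91 dropped below it, 87 crossed above it and 21 changed sign, none of the 21 past the threshold. The cause of the changes below was not tested unless named.

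Pomc-high genotype: the 2 calls became 4 with library totals and 1 with the tumour number as a replicate block; calls over all genes (1179) became 1917 with DESeq2, 1964 with weighted limma-voom, 354 with the block and 1981 with the length and GC offset. Calca-high genotype: the 27 calls became 14 with the block, and all-gene calls (5355) became 2700 with the block, 3495 with the length offset and 3551 with length and GC. All libraries: the 4 calls became 20 with library totals, 15 with DESeq2, 41 with weighted limma-voom and 16 with the set as a term, and the 554 all-gene calls 2204, 1381, 7467 and 2575. Between sets: 41 became 0 with the block and 9270 became 948; only number 2 occurs in both sets, so that fit rests on 1 pair. Interaction: 9 became 22 with weighted limma-voom and 0 with either offset, and 3531 became 1958 and 2174. Same-numbered libraries had correlations of deviations of -0.131 to 0.216 (Pomc-high) and -0.159 to 0.143 (Calca-high). Among them only number 5 (Pomc-high, 0.216) correlated best with the library of its own number. So few pairs cannot show whether tumour numbers pair the samples, and the fits without the block treat them as unpaired.

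Library totals moved the median of all genes to 0.13 (Pomc-high), 0.18 (Calca-high), 0.17 (all libraries) and 0.13 (between sets), and changed the split of all-gene calls from 442 higher and 737 lower to 954 and 459, from 2821 and 2534 to 4443 and 1312, from 260 and 294 to 1998 and 206, and from 4804 and 4466 to 5688 and 3472. With the length offset and with length and GC the splits were 936 and 759, and 1171 and 810 (Pomc-high), 388 and 237, and 376 and 241 (all libraries), and 886 and 1072, and 961 and 1213 (interaction, 1982 and 1549 without).

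Leaving out 1 library in turn gave 2 to 3 calls among the 41 genes in the Pomc-high, 16 to 37 in the Calca-high, 1 to 12 in the all-library, 40 to 41 in the between-set and 3 to 23 in the interaction fit; over all genes they gave 752 to 1214 (Pomc-high), 3588 to 5312 (Calca-high), 285 to 1010 (all-library), 8863 to 9330 (between-set) and 2487 to 3849 (interaction).

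Signs that changed, on the log2 scale and none of them past the threshold: in the Pomc-high fit Foxm1 came to -0.0331 with weighted limma-voom. With 1 library left out in turn the Pomc-high values ran from -0.0777 to 0.172 for Ccnb1, -0.0461 to 0.227 for Cenpe, -0.0166 to 0.265 for Kif11, -0.0461 to 0.143 for Foxm1 and -0.000434 to 0.311 for Mki67. The block brought Cdc25b between sets to -0.0811. In the interaction Nusap1 came to 0.0187 with library totals and 0.0647 with weighted limma-voom, Spc25 to 0.157 and 0.14 with the length and the length and GC offsets, and Cdk1 to -0.00261 with the latter. With 1 library left out the interaction ran from -0.147 to 0.154 for Cdc25b, -0.332 to 0.0493 for Spc25 and -0.256 to 0.086 for Nusap1. The lows of the Pomc-high values came without Rb1/Trp53/Crebbp T6.

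The fewest counts of any of the 41 genes in a library were 38.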
